A study of Macaca mulatta with 12 samples.

Results

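The pre-miRNAs described here are those that the study of the rhesus macaque (Macaca mulatta) found and that neither miRBase nor Ensembl listed. They were chosen from a merged list of pre-miRNAs, of which 832 could be read here. Of these, 116 were absent from both databases. Names beginning mml-mir-548 removed 59 of them and the excluded stretch of the chromosome of mml-mir-411 removed 0, which left 57 members. The rest of the list was not used here, so that "outside" below means the other 775 readable pre-miRNAs.

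The 12 small RNA sequencing (sRNA-seq) profiles came from 8 tissues of untreated wild-type animals aged 36 months. Kidney, large intestine, muscle and small intestine had 2 profiles each, and liver, lung, occipital lobe and spinal cord had 1 each. The tissues were taken from 2 animals, so that profiles share animals in every comparison. The labels do not say which profile came from which animal, and p-values measure the spread between these profiles only. The profiles held 22118095 to 25579064 valid reads, and 1 read stood for 0.391 to 0.452 RPTM (reads per 10000000 valid reads). Markers of the tissues were where the labels put them. The liver miRNA mml-mir-122a had 8524 RPTM in liver and at most 4.37 elsewhere, and the muscle miRNA mml-mir-133b had 3777 and 6491 RPTM in muscle and at most 32.1 elsewhere.

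A pre-miRNA is a hairpin RNA that Drosha releases from a longer transcript and that Dicer trims to a short duplex. The strand of the duplex that is kept in an Argonaute protein is the mature miRNA, named 5p or 3p after the arm it comes from. Its bases 2 to 8, the seed, pair with target mRNAs, so that a miRNA with a shifted or changed seed has other targets. Both DNA strands of a miRNA locus can be transcribed, and because a hairpin is nearly a palindrome its antisense transcript can also fold into a hairpin. Since the study searched the genome with known animal miRNAs and used these same profiles to keep candidates, that a member has reads is not independent evidence that it is a miRNA gene.

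The sequences below are the ones on which the results turn, with the seed in capitals. They are the mature miRNAs of the study's list, written 5′ to 3′. The first set holds members transcribed from the strand opposite to a known pre-miRNA, each with the partner's mature miRNA that it overlaps, where the partner has one there.
mml-miR-203a-3p: uUGAACUGuuaagaaccacugga
mml-miR-219-3p: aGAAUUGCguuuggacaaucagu
mml-mir-219-2-5p: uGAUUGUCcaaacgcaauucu
mml-miR-3546-5p: aAGCUUUUugcucgucuuauac
mml-mir-208a-3p: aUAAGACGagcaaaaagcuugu
mml-miR-3546-3p: aUAACCCGggccaaaagcuc
mml-mir-208a-5p: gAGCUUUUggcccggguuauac
mml-miR-3544-3p: aCUCCUGUaugaagccguuccc
mml-mir-337-5p: gAACGGCUucauacaggaguu
mml-miR-3120-5p: cCUGUCUGugccugcuguaca
mml-mir-214-3p: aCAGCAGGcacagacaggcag
The mature sequences of a pair are antisense to each other over 18 to 21 nt here, so that their seeds differ. The next set shows the miR-1587 members, which are runs of the unit gggcu and differ at their ends.
mml-miR-1587ai-3p: cUGGGCUGggcugggcugggca
mml-miR-1587i-3p: cUGGGCUGggcugggcuggg
mml-miR-1587h-3p: cCGGGCUGggcugggcuggg
mml-miR-1587l-3p: gAGGGCUGggcugggcuggg
mml-miR-1587k-3p: uGGGCUGGgcugggcuggg
The last set holds the member with the most reads, 1 member with reads that differ from an abundant miRNA by 1 base, and 2 members with reads of their own.
mml-miR-378b-3p: uGGACUUGgagucagaaggcu
mml-miR-320b-3p: aAAAGCUGgguugagggggc
mml-miR-1256c-3p: uUAGAGAGaagucaaugcaug
mml-miR-3085-3p: uCUGGCUGcuauggcccccuc
The 57 members had 110 mature sequences with 88 distinct seeds, and 21 of these mature sequences, from 17 members, had the seed of a mature miRNA outside the members.

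Reads of these pre-miRNAs were few. Sequences were counted when they matched a pre-miRNA over their whole length, and a pre-miRNA was called detected with at least 10 such reads over the 12 profiles. Of the 57 members, 25 (43.9%) were detected, 6 had at least 100 reads, the median was 7 reads, and mml-miR-4459 and mml-miR-466am had none. Among the 399 other pre-miRNAs on the list with a mark for these profiles and for a database, 335 (84%) were detected and the median was 787 reads. In 21 of the 25 detected members at least 65% of the reads had both ends within 2 nt of a mature miRNA, against 290 of 335 for the pre-miRNAs in a database. The study kept candidates in both groups for reads gathered at the mature miRNA in these profiles, so that these shares were favoured beforehand. The members took up 185 different sequences with 1890 reads, of which 152 sequences with 1352 reads matched members only.

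**Figure D1:**
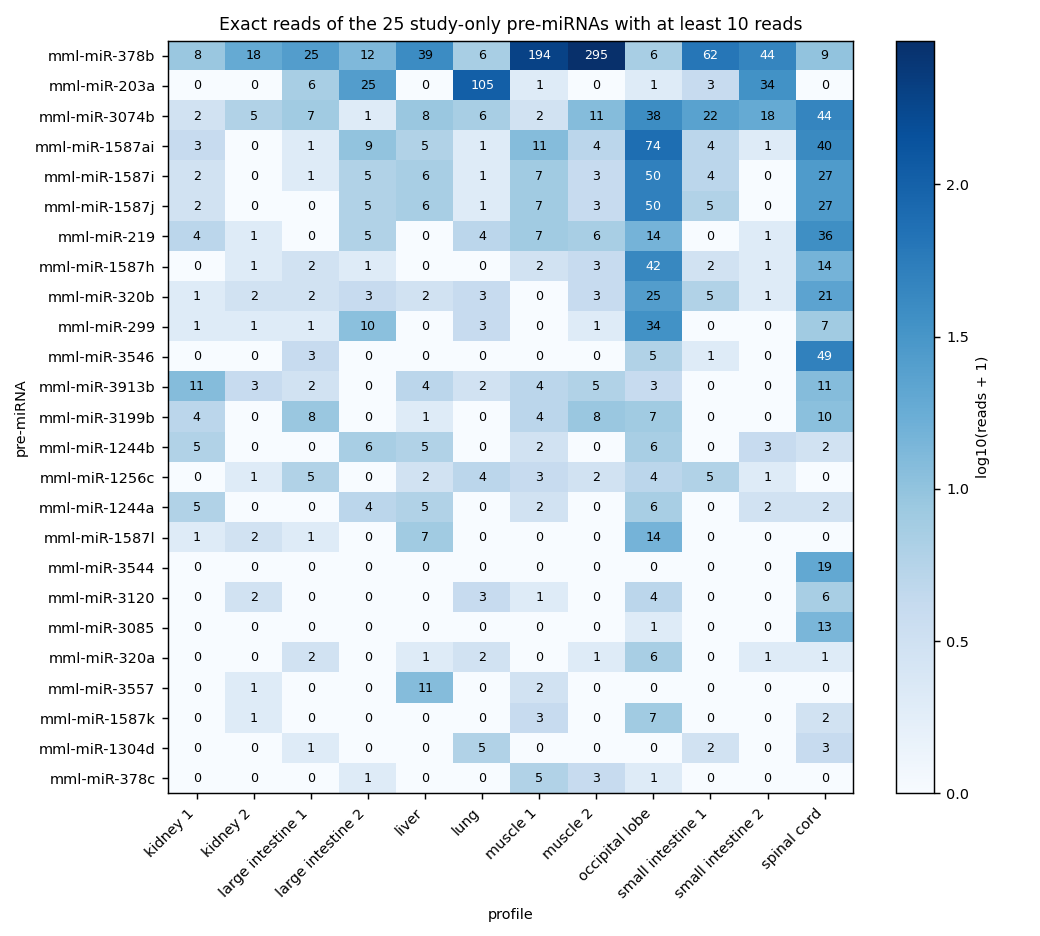
Exact reads of the 25 members with at least 10 reads (rows) in each of the 12 profiles (columns), with the count in each cell and the colour on a log10(reads + 1) scale. The counts run from 0 to the 295 reads of mml-miR-378b in muscle 2, and many rows are highest in occipital lobe or spinal cord.

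The reads that matched members only were spread unevenly over the profiles. They came to 97.3 RPTM in occipital lobe, 99.1 RPTM in spinal cord, 102 RPTM in muscle 2 and 8.99 RPTM in kidney 1, which was the lowest. The number of members with a read was highest in occipital lobe at 31 and lowest in small intestine 1 at 12. Of the 25 detected members, 11 had their highest RPTM in occipital lobe, beside 21.3% of the 521 pre-miRNAs with at least 10 reads, and 8 in spinal cord, beside 26.9%. Of the 11, 6 are miR-1587 members with the same repeat, and mml-miR-1244a and mml-miR-1244b share 26 reads. In 10 of the 25, both neural profiles lay above all 10 other profiles, beside 36.7% of the 521. The neural miRNA mml-mir-124a-1 had at least 3759 RPTM in these profiles and at most 8.07 elsewhere, while the intestinal miRNA mml-mir-215 did not exceed 18813 RPTM outside small intestine, where it had at least 167224.

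The reads of a member could often be traced to another pre-miRNA as well. A read was called near another pre-miRNA when it matched a pre-miRNA outside the members exactly, after removal of a 3′ tail of 1 or 2 nt, or with 1 base changed. With such reads set aside, a choice made after seeing the data, 19 members still had at least 10 reads. Of these, 8 lay opposite another pre-miRNA, 6 were miR-1587 members and 5 were neither. For 5 of the 25 detected members every read was near a pre-miRNA outside, namely mml-miR-3074b, mml-miR-320b, mml-miR-299, mml-miR-3913b and mml-miR-320a.

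**Figure D2:**
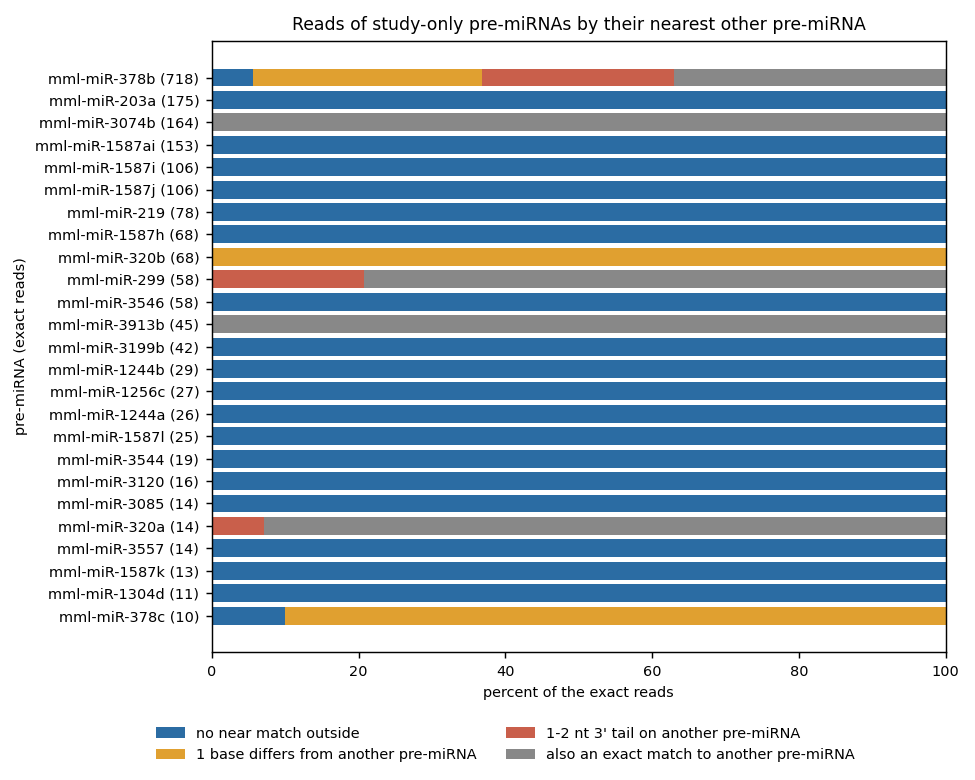
Percent of the exact reads of each detected member (rows, with its reads in brackets) by the closest pre-miRNA outside the members. The bars of 18 members show reads without a near match only, while 5.57% of the reads of mml-miR-378b have none.

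Antisense members were the largest group. In the genome build Mmul_8.0.1, 19 of the 57 members (33.3%) overlapped another pre-miRNA on the opposite strand, against 10 of the 59 miR-548 pre-miRNAs found only by the study (16.9%) and 5.26% of the 399 pre-miRNAs that a database also lists, without a test as the list was held in part. For 18 of the 19 members the listed sequences of both strands were complementary over the whole overlap. For the other, mml-miR-1304d with mml-mir-1304, 1 base differed. The members mml-miR-3199a and mml-miR-3199b are each other's partner, so that their pair was counted for both. Of the 19, 11 were detected, and 9 when only reads that match a single pre-miRNA were counted. In 17 pairs the partner was not itself a member, and 15 of these partners are in miRBase. The partner had more reads in all pairs but that of mml-miR-3546 and that of the members mml-miR-3199a and mml-miR-3199b.

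**Figure D3:**
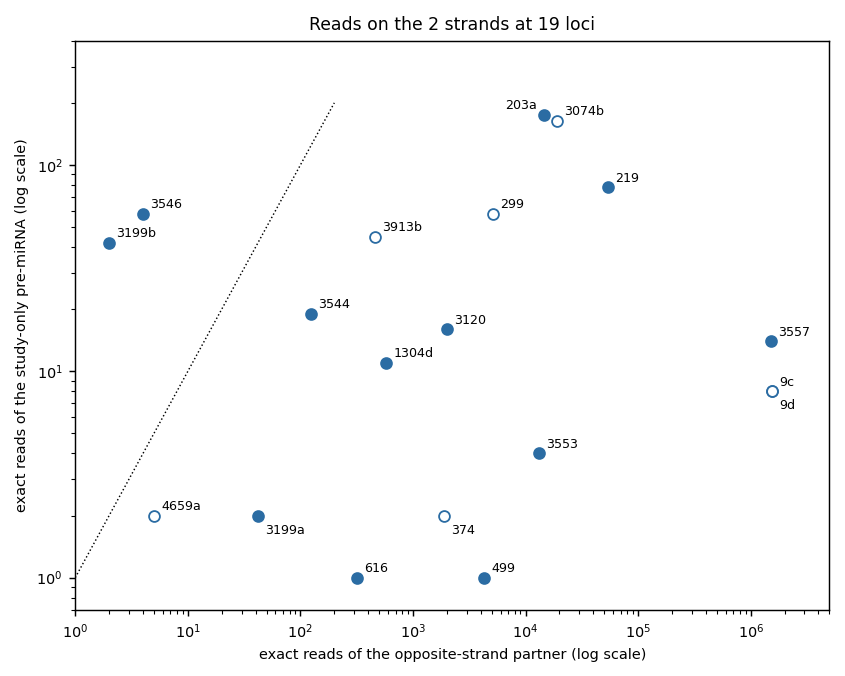
Exact reads of the 19 members on the opposite strand of another pre-miRNA (vertical axis) against the reads of that partner (horizontal axis), both on log scales over the 12 profiles. Open circles mark members without reads of their own or with reads that match the partner too, the dotted line marks equal counts, and mml-miR-3546 and mml-miR-3199b are the points above it.

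mml-miR-203a is the antisense hairpin of mml-mir-203, an epithelial miRNA, with an overlap of 110 nt. Its 175 reads matched no other pre-miRNA and all lay on the 3p arm. It had 105 reads in lung, 34 and 3 in small intestine, 25 and 6 in large intestine, 1 in muscle 1, 1 in occipital lobe, and 0 in both kidney profiles, liver, muscle 2 and spinal cord. The partner had 7942 reads in lung, between 730 and 2336 in the 4 intestinal profiles and at most 128 elsewhere, so that the profiles with most reads on the member were also among those with most on the partner. The member held 1.18% of the reads of the pair (95% Wilson interval 1.02 to 1.36%), with 1.31% in lung, 2.57% and 0.409% in small intestine and 1.24% and 0.256% in large intestine. The 23-nt sequence that begins uugaacug led with 61 reads, 73.1% of the reads began at its 5′ end, and 57.7% had both ends within 2 nt of a mature miRNA. Where only such reads were counted, the share of the pair fell to 0.704%.

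mml-miR-203a was fitted with all pre-miRNAs in edgeR's quasi-likelihood test, in which a tissue was compared with the mean of the other 6 tissue groups and adjusted p-values below 0.05 (Benjamini-Hochberg) were called. The filter of a mean of at least 5 RPTM left 336 pre-miRNAs, of which 4 were members, and mml-miR-203a passed it through lung. It was called higher in small intestine (log2 fold change 4.60 ± 1.06 SE, adjusted p = 0.019), with 14.3 and 1.23 RPTM there. In the same comparison 15.8% of all pre-miRNAs were called higher. It was also called higher in large intestine (log2 fold change 4.33 ± 1.08 SE, adjusted p = 0.034), with 10.6 and 2.71 RPTM, where 8.93% of all pre-miRNAs were called. Both levels lay below the 45.9 RPTM of lung, which was not tested as it had 1 profile. Because whole groups had no read, the fitted fold changes depend on the prior count and bound nothing. Without small intestine replicate 2 the first was 2.08 (adjusted p = 0.40). The second lost its call without large intestine replicate 1 (adjusted p = 0.066), large intestine replicate 2 (0.34), kidney replicate 1 (0.053), liver (0.054) or muscle replicate 2 (0.067), and without lung the member did not pass the filter.

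mml-miR-3546, opposite mml-mir-208a over 71 nt, had more reads than its partner. mml-mir-208a lies in a cardiac myosin gene and is known as a heart miRNA. The member had 49 reads in spinal cord, 5 in occipital lobe, 3 in large intestine 1, 1 in small intestine 1 and 0 in the other 8 profiles. Its partner had 2 reads in each muscle profile and 0 in the other 10. The member thus held 93.55% of the reads of the pair (95% Wilson interval 84.55 to 97.46%), and no profile had reads on both strands. Both arms were read, with 47 reads on the 5p arm, all of which began at the same base, and 11 on the 3p arm. The seed of the 5p miRNA, AGCUUUU, is also that of mml-mir-208a-5p and mml-mir-208b-5p, since the hairpin is nearly a palindrome.

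mml-miR-219 is the antisense hairpin of mml-mir-219-2, a miRNA known for its role in the oligodendrocytes of the nervous system. It had 36 reads in spinal cord, 14 in occipital lobe, 7 and 6 in muscle, 4 and 1 in kidney, 5 and 0 in large intestine, 4 in lung, 1 and 0 in small intestine and 0 in liver. The partner had 48006 reads in spinal cord, 5872 in occipital lobe and at most 14 elsewhere. The member held 0.144% of the reads of the pair, but this share was 0.0749% in spinal cord and 0.238% in occipital lobe against 46.7% in muscle 1, where the counts were 7 and 8. Of its 78 reads 68 were on the 3p arm and 4 on the 5p arm, and 95.6% of the 3p reads began at the annotated base.

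mml-miR-3544 and mml-miR-3120 also had reads on both arms. All 19 reads of mml-miR-3544 were in spinal cord, where its partner mml-mir-337 had 17, while the other profiles had 0 on the member and 1 to 28 on the partner. Of these 19 reads 13 were the same 22-nt sequence of the 3p arm, and 6 were on the 5p arm. mml-miR-3120 had 6 reads in spinal cord, 4 in occipital lobe, 3 in lung, 2 in kidney 2 and 1 in muscle 1, with 8 on each arm, and mml-mir-214 on the other strand had 1986. The member held 20% of the pair in occipital lobe, 14.3% in spinal cord and 0.799% over all profiles. The hairpins of the 4 antisense members with more than 1 read on each arm were also folded with RNAfold, and the 3′ overhangs of the leading reads were taken from the nearest paired bases. Drosha and Dicer typically leave 2 nt. The leading 5p read had an overhang of 2 nt in mml-miR-3546 (40 reads), mml-miR-3544 (4), mml-miR-219 (2) and mml-miR-3120 (8). The overhang of the leading 3p read was 0 nt in mml-miR-3546 (6 reads), 1 nt in mml-miR-3544 (13), 2 nt in mml-miR-219 (43) and 3 nt in mml-miR-3120 (3). Several of these ends thus rest on few reads.

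The other antisense members had fewer reads or reads that they shared. mml-miR-3557, opposite mml-mir-378a, had 11 of its 14 reads in liver, 2 in muscle 1 and 1 in kidney 2, beside 1506785 reads on the partner, which was highest in muscle. mml-miR-1304d had 11 reads, 5 of them in lung. mml-miR-3199b had 42 reads in 7 profiles, at most 10 of them in 1 profile, and mml-miR-3199a on its other strand had 2. For mml-miR-3199b 41.5% of the 5p reads began at the most used base, so that its ends were among the least defined. mml-miR-9c and mml-miR-9d shared the same 8 reads, 4 in occipital lobe and 4 in spinal cord, and lay opposite mml-mir-9-2 and mml-mir-9-1, brain miRNAs with 1554856 and 1554862 reads. Of these partner reads 0 and 6 matched a single pre-miRNA, so that the totals of the partners are not separate. Every read of mml-miR-3074b (164, opposite mml-mir-24-2) also matched mml-miR-3074a, and every read of mml-miR-3913b (45) also matched its partner mml-miR-3913a. Of the 58 reads of mml-miR-299, 46 matched mml-mir-299 on the other strand as well and the other 12 differed from it by a tail, so that their strand could not be told. mml-miR-3553, mml-miR-374, mml-miR-4659a, mml-miR-499 and mml-miR-616 had 1 to 4 reads.

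mml-miR-3074b had reads in all 12 profiles, as did only mml-miR-378b among the members. It had 18.4 RPTM in spinal cord, 16.5 in occipital lobe, 9.0 and 7.59 in small intestine and at most 4.79 elsewhere. It was not called in small intestine (log2 fold change 2.27 ± 0.71 SE, adjusted p = 0.053 in edgeR) or in neural tissue (0.95 ± 0.71 SE, adjusted p = 0.27). The former was called without a filter (2.23, adjusted p = 0.016) and on the 8 numbered profiles alone (2.35, adjusted p = 0.044). Leaving out large intestine replicate 1 gave 2.59. In small intestine it was not called with DESeq2, with valid reads as library size or with a filter of a mean of at least 1 RPTM (2.18, adjusted p = 0.062). The mean of mml-miR-3074b outside neural tissue was 3.45 RPTM, so that it passed the filter of 5 RPTM through the neural profiles. With valid reads in place of TMM-scaled library sizes the neural difference was 2.61 (adjusted p = 0.0046), while the median over all 336 pre-miRNAs moved from 0.31 to 2.0, so that the member lay above the median by less than 1 log2 unit under either scaling.

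The miR-1587 members were repeats with reads mainly in neural tissue. The 7 members took up 26 sequences with 258 reads, each read counted once, and none matched a pre-miRNA outside the members. Of these reads 187 (72.5%) were in occipital lobe or spinal cord, with 55.2 and 25.1 RPTM, and no other profile was above 6.26 RPTM. mml-miR-1587ai had 74 reads in occipital lobe, 40 in spinal cord, 11 and 4 in muscle, 9 and 1 in large intestine, 5 in liver, 4 and 1 in small intestine, 3 and 0 in kidney and 1 in lung. mml-miR-1587i and mml-miR-1587j had 106 reads each, of which 105 were the same reads, with 50 in occipital lobe and 27 in spinal cord in both. mml-miR-1587i had 7 and 3 in muscle, 6 in liver, 5 and 1 in large intestine, 4 and 0 in small intestine, 2 and 0 in kidney and 1 in lung, and mml-miR-1587j differed from it by 1 read in large intestine 1 and in small intestine 1. mml-miR-1587h had 68 reads, 42 of them in occipital lobe and 14 in spinal cord, while mml-miR-1587l had 14 of 25 in occipital lobe and 0 in spinal cord. mml-miR-1587k (13 reads) and mml-miR-1587ag (7) were also highest in occipital lobe.

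The reads of this family differed in how far they told its members apart. The 20-nt sequence cugggcugggcugggcuggg, with 68 reads, matched mml-miR-1587ai, mml-miR-1587i and mml-miR-1587j. Among the readable pre-miRNAs, the 22-nt sequence that ends in ca, with 62 reads, matched mml-miR-1587ai alone. Likewise 61 of the 68 reads of mml-miR-1587h matched it alone. The rest of the list was not searched, so that these reads may also match pre-miRNAs there. A search of all profiles for the 13 letters gggctgggctggg, read in the direction of the reads only, found 668 reads of 214 sequences, of which 26 sequences with 258 reads (38.6%) matched a member. The remaining reads with this repeat were not assigned here. All reads with the repeat came to 146 RPTM in occipital lobe, 57.3 RPTM in spinal cord and 4.97 to 12.9 RPTM in the other profiles.

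**Figure D4:**
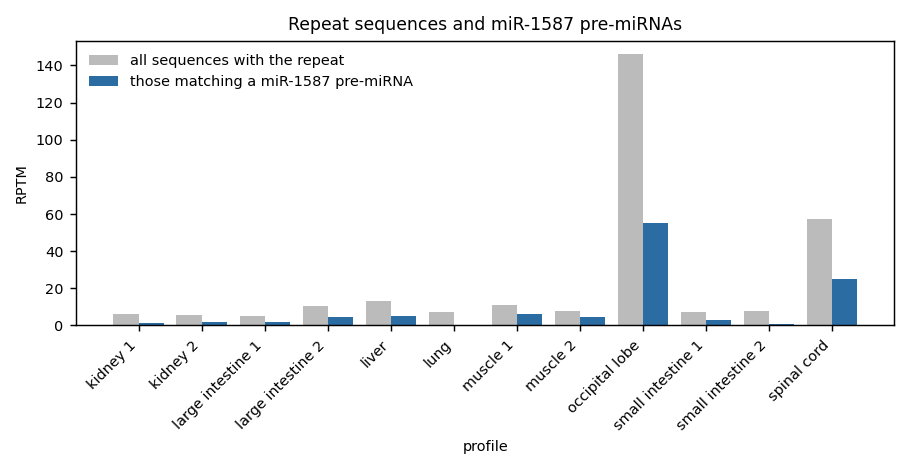
RPTM of all reads that hold the 13-letter repeat (grey) and of those that match a miR-1587 member (blue) in each of the 12 profiles. Both are highest in occipital lobe, at 146 and 55.2 RPTM, and next in spinal cord, at 57.3 and 25.1 RPTM.

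mml-miR-1587ai was the miR-1587 member that passed the filter. It had 32.2 and 16.7 RPTM in occipital lobe and spinal cord and at most 4.59 elsewhere, and was called higher in neural tissue (log2 fold change 2.55 ± 0.78 SE, adjusted p = 0.016 in edgeR). There 38.7% of all pre-miRNAs were called higher, and 1 of 4 members. Without either neural profile mml-miR-1587ai no longer passed the filter, which it met through them, with a mean of 1.63 RPTM over the others. mml-miR-3074b passed in the same way, so that nothing is read from this call or from the 1 of 4. With a filter of a mean of at least 1 RPTM, 14 members could be tested and 7 were called higher in neural tissue, beside 36.5% of the 441 pre-miRNAs then tested. The filter fixed part of this count, as mml-miR-3546 (0.177 RPTM), mml-miR-1587h (0.512) and mml-miR-299 (0.726) had a mean below 1 RPTM over the 10 other profiles and passed through the neural ones, and nothing is read from it. The 7 were mml-miR-1587ai, mml-miR-1587h (log2 fold change 4.13 ± 0.91 SE), mml-miR-1587i, mml-miR-1587j, mml-miR-219, mml-miR-299 and mml-miR-3546 (5.41 ± 1.30 SE). The miR-1587 members share reads, 46 of the 58 reads of mml-miR-299 also match outside, and 49 of the 58 reads of mml-miR-3546 were in spinal cord. The occipital lobe and the spinal cord were 1 profile each, and differences between them were not tested.

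The remaining members with many reads resembled abundant miRNAs. mml-miR-378b, with 718 reads on the 3p arm, had 194 and 295 reads in muscle, 62 and 44 in small intestine, 39 in liver, 25 and 12 in large intestine, 18 and 8 in kidney, 9 in spinal cord, 6 in lung and 6 in occipital lobe. Of these, 266 matched mml-mir-378a exactly, 188 matched it after removal of a tail, 224 differed by 1 base from a pre-miRNA outside and 40 had no near match. The 22-nt read aauggacuuggagucagaaggc (184 reads) differed from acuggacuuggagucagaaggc (1128126 reads) by A2C, where positions count from the 5′ end and the base of the member comes first. It made up between 0.00466% and 0.026% of the 2 sequences in each profile. The 40 reads without a near match were highest in muscle 2 with 18 and liver with 8.

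mml-miR-378b was called higher in muscle, with 80.9 and 129 RPTM there and at most 25.4 elsewhere (log2 fold change 3.76 ± 0.46 SE, adjusted p = 0.00024 in edgeR). Of all 336 pre-miRNAs 21.4% were called higher and 18.2% lower in muscle, and of the 4 members 1 and 0. It was called lower in neural tissue, with 2.61 and 3.77 RPTM (log2 fold change -3.61 ± 0.72 SE, adjusted p = 0.0018), as were 29.8% of all. In small intestine it was called higher, with 25.4 and 18.6 RPTM (log2 fold change 2.15 ± 0.49 SE, adjusted p = 0.015), below both muscle profiles. This call was lost without small intestine replicate 1 (1.85, adjusted p = 0.17), without replicate 2 (2.40, adjusted p = 0.057) and with valid reads as library size (1.25, adjusted p = 0.069). In kidney edgeR called 0 of the 4 members in either direction, 0 at an unadjusted p under 0.05 and 0 with DESeq2, beside 14.0% of all pre-miRNAs higher and 6.25% lower. No member was called lower in muscle, small intestine (2.68% of all) or large intestine (3.87% of all), where 0 also had an unadjusted p under 0.05 and DESeq2 called 0. The split of calls over all pre-miRNAs depended on the scaling. With valid reads as library size, 209 were higher and 37 lower in neural tissue (130 and 100 with TMM), 30 and 54 in kidney (47 and 21), 25 and 94 in small intestine (53 and 9) and 23 and 86 in large intestine (30 and 13).

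mml-miR-320b and mml-miR-378c showed the same likeness at a lower level. All 68 reads of mml-miR-320b differed by 1 base from reads of mml-mir-320a and mml-miR-320b-1, and its leading read (59) from a sequence with 16250 reads by G16A. This read made up 0.342% of the 2 sequences in occipital lobe, 0.417% in spinal cord and 0 to 0.912% in the other profiles, while its count was 21 and 17 in the neural profiles and at most 5 elsewhere. Of the 10 reads of mml-miR-378c, 9 differed by 1 base from mml-mir-378a, its leading read by C13U, and muscle held 5 and 3 of the 10. The 14 reads of mml-miR-320a were those of other miR-320 pre-miRNAs or had a tail on them.

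Members outside these families had few but some distinct reads. mml-miR-1256c had 27 reads in 9 profiles, at most 5 in each, and 25 of them were the same 21-nt sequence, so that its 3p reads all began at the same base. mml-miR-3085 had 13 reads in spinal cord, 1 in occipital lobe and 0 elsewhere, 11 of them on the 3p arm with the same 5′ end, and the seed of this arm is that of mml-miR-3064-5p. In contrast mml-miR-1244a and mml-miR-1244b shared 26 reads of 27 nt or other lengths, and 30.8% and 29.6% of these began at the most used base. mml-miR-1264 had 6 reads, all in spinal cord.

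None of the 12 miR-466, miR-467 and miR-669 members was detected, and the median was 4 reads. In 9 of them the only reads were 4 lung reads of a 19-nt sequence, which is listed as a mature miRNA of all 9, with the seed UGUGUGU. It is shown since it does not tell them apart.
mml-miR-466ab-5p: gUGUGUGUguauauauaug
The 3 miR-544 and the 2 miR-570 and miR-603 members had 2 to 4 reads each. In all, 30 members had 1 to 9 reads, and 21 members had reads in 1 profile only.

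Mature miRNAs usually have a well defined 5′ end, since it sets the seed. Over the 25 arms of members with at least 10 reads, the share of reads at the most used 5′ end had a median of 78.6% and ranged from 29.6 to 100%. The median was 93.8% over 264 arms with 10 to 1000 reads of pre-miRNAs that a database also lists, and 85.9% over 41 arms of the miR-548 members of the study. With at least 50 reads the medians were 80% over 10 arms of members and 94.4% over 167. The arms of members had a median of 41 reads, fewer than the 96 of the database arms, and several share reads, so that no test was made.

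**Figure D5:**
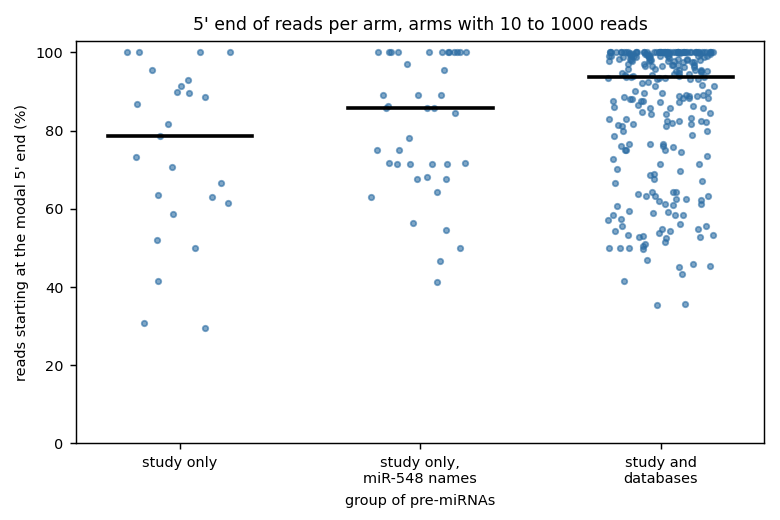
Share of reads at the most used 5′ end for each arm with 10 to 1000 reads (points) and the median (line) in members (78.6%), in the miR-548 pre-miRNAs found only by the study (85.9%) and in pre-miRNAs that a database also lists (93.8%). Points are spread sideways for visibility only.

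The hairpins of members, as the list gives them, had a median length of 139 nt (98 to 202), against 90 nt for pre-miRNAs in a database. RNAfold gave a median minimum free energy of -39.8 kcal/mol per 100 nt for members and -43.9 for pre-miRNAs in a database. The median GC content was 44% and 47.1%, and it ranged from 22.1 to 76.5% among members. The study took candidates with flanking sequence around the mapped miRNA. How far these differences rest on where the sequences were cut was not tested.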

How the data were processed

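Small RNAs of 12 rhesus macaque profiles were sequenced on an Illumina HiSeq instrument. The authors kept reads with sequencing scores of at least 30 in the first 25 nt, removed the 3′ adapter, discarded sequences shorter than 18 nt and deposited counts of unique sequences, which are not normalized. Sequences of 18 to 44 nt were found here as exact stretches of the 832 readable pre-miRNAs of the study's list, whose sequences, names and positions (build Mmul_8.0.1) were taken, and counted for every pre-miRNA they matched. No genome was used, so that reads from elsewhere could not be removed, and 410 of the 668 reads with the miR-1587 repeat were not assigned. RPTM values used all valid reads.

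Tissues were compared with edgeR 4.0.16 in R 4.3.3 (TMM, quasi-likelihood, 7 groups with occipital lobe and spinal cord as neural tissue, two-sided, Benjamini-Hochberg over all pre-miRNAs that averaged 5 RPTM or more with an SD of 1 or more). Liver and lung had 1 profile and were not tested. Each SE was the absolute log2 fold change divided by the square root of the test's F statistic, so that it is approximate and not fitted. On simulated counts for the muscle comparison of 336 pre-miRNAs, 100% of 67 changes of 8-fold were recovered with 2 false calls. The simulated counts had the same spread for all pre-miRNAs and no difference between other tissues, so that they do not cover groups without reads. All of 300 simulated sequences were assigned rightly by exact matching to the same hairpins. That outcome followed from the way of matching, so that it does not test whether reads were given to their true source. Alternatives were DESeq2 1.42.0, other filters, other scaling, other read sets and leaving out each profile. Wilson intervals of 95% and shares cover counting error only, since the libraries had no molecular identifiers and copies of 1 molecule could be counted more than once. Hairpins were folded with RNAfold 2.7.2, and Python 3.11.15 with scipy 1.17.1 was used otherwise. Members with at least 10 reads are named, and those with at least 100 reads that match members only or with a call are given in every profile. The members, gene lists and tests were chosen with earlier results of these data known. Whether the replicate numbers stand for animals could not be told, as given in the section on processing.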

Additional observations from a re-analysis of the deposited data

How the results depend on the processing

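Of the 377 alternatives for values of members, 336 kept a call or gave an equal or similar count or share. Many of the 336 were counts of 0 called members that stayed 0, as for members lower in muscle (0 of 4 as reported). The total of 336 thus does not measure how stable the calls were. Of the other alternatives, 11 lost a call, 30 moved a count or share and 0 reversed. Fold changes from fits in which the member did not pass the filter were left out, so that the 11 holds fitted members only. Detected members were 55 with at least 1 read and 6 with at least 100, and opposite-strand members 19 and 2, and leaving out a profile gave 21 to 25 and 8 to 11. Shares of opposite-strand pairs moved with the reads counted. With reads that match a single pre-miRNA the share was 0 for mml-miR-3074b and mml-miR-3913b and 0.234% for mml-miR-299, and with reads ending within 2 nt of a mature miRNA it was 0.704% for mml-miR-203a, 0.109% for mml-miR-219 and 9.32% for mml-miR-1304d. Members called higher in neural tissue (1 of 4 as reported, beside 130 of all 336) were 2 of 4 with valid reads as library size, beside 209 of 336. They were 9 of 55 without a filter, beside 176 of 682, and 7 of 14 with a filter at a mean of 1 RPTM, beside 161 of 441. With single-match reads they were 0 of 2, beside 119 of 294, and without either neural profile mml-miR-1587ai did not pass the filter. Members higher in small intestine (2 of 4, beside 53 of all 336) were 1 of 4 with valid reads as library size, beside 25 of 336. With reads ending within 2 nt they were 1 of 3, beside 49 of 315, and the count changed when some profiles were left out. Members higher in large intestine (1 of 4, beside 30 of all 336) were 0 of 3 with reads ending within 2 nt, beside 31 of 315. This count also changed when some profiles were left out. mml-miR-203a could not be fitted with reads ending within 2 nt, where it did not pass the filter.

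The replicate block on the 8 numbered profiles gave 1 member lower in kidney (mml-miR-378b, log2 fold change -2.34), as did the fit without it (1, log2 fold change -2.32). In both fits the call of mml-miR-378b in small intestine was lost (log2 fold change 0.67 and 0.66), and the cause was not tested. Both also called mml-miR-3074b in small intestine (log2 fold change 2.37 with the block and 2.35 without). No count of called members differed between them. The correlation of deviations from the tissue means ran from -0.15 to 0.134 over 6 pairs of tissues. No difference shared by profiles of the same number was thus seen, but whether the numbers stand for animals cannot be told from this.

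Counts over all pre-miRNAs moved in 44 of 196 alternatives. In muscle, 36 were lower with single-match reads, and 44 to 85 higher and 21 to 89 lower without a profile. In kidney, 30 were higher and 54 lower with valid reads, and lower were 38 with DESeq2, 32 without a filter, 49 with the replicate block and 55 without it on the same profiles, and without a profile 24 to 62 were higher and 4 to 40 lower. In neural tissue, 209 were higher and 37 lower with valid reads. In small intestine, 25 were higher and 94 lower with valid reads, and lower were 39 with DESeq2, 20 with single-match reads, 30 with the replicate block and 32 without it, and without a profile 20 to 77 were higher and 0 to 23 lower. In large intestine, 86 were lower with valid reads, 43 with DESeq2, 34 without a filter, 26 with the replicate block and 27 without it, 50 were higher without a filter, and without a profile 16 to 55 were higher and 1 to 26 lower. Depth limits what can be said of 30 members, which had 1 to 9 reads.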
